A study of Rattus norvegicus with 12 samples.

Results

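Fibroblast-like synoviocytes (FLS) treated with 10 µM taurochenodeoxycholic acid (TCDCA, the AT10 group) were compared with untreated FLS (the FCA group). The comparison used 6 of the 12 libraries of the series, 3 of each group, and it was made on FPKM (fragments scaled by transcript length and by the mapped fragments of the library) for gene records, each of which is a locus assembled over the libraries or a rat gene. Of 22442 records, 11611 passed a filter on low values (12-library mean no lower than 1 FPKM) and were tested, and the 11089 of these that did not switch between separate levels within a group are described. All cells came from the synovial tissue of male Sprague Dawley rats with adjuvant arthritis (AA) induced by complete Freund's adjuvant, and they were used at passage 3, so every group carries the arthritis and no healthy animal is in the comparison. The FCA cells were incubated with DMEM alone, and the AT10 cells with TCDCA at 1e-05 M, for 12 h. The AT1 and AT01 groups, which received 1 and 0.1 µM in the same way, did not enter the main test. Their values are given beside those of AT10 only as values. They did enter the filter on low values, the search for records that switch between levels, and 1 alternative fit over the 12 libraries. They share the FCA libraries with the AT10 comparison. The sources do not give the age of the rats, and they call the numbers 1 to 3 repeats of the study without saying whether a number stands for an animal, a culture or a day, so the p-values measure only the spread between these libraries, which may be technical.

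FLS line the joint cavity. They secrete hyaluronan and lubricin into the joint fluid, and in arthritis they release cytokines, chemokines, prostaglandins and matrix-degrading enzymes and lay down collagen. TCDCA is the taurine conjugate of chenodeoxycholic acid, a primary bile acid. Bile acids are known to act through the nuclear receptor FXR, the membrane receptor TGR5 (Gpbar1) and the sphingosine phosphate receptor S1pr2, and TGR5 raises cAMP in the cell.

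The 6 libraries had totals of similar size, but every AT10 total lay below every FCA total. FPKM summed to between 296811 and 305195 in the FCA libraries and to between 284210 and 295444 in the AT10 libraries, and between 11487 and 11679 records per library reached 1 FPKM. Read counts per record do not come with the values, so the counting error of a value is unknown. The quality listing of the study gives the reads per library, which were not used here. The markers of FLS were high, with Vim at 2663 to 3084 FPKM and Col1a1 at 900.25 to 1071.96 FPKM in the untreated cells, and the FLS list summed to 10180 to 10710 FPKM in FCA and 8857 to 10020 FPKM in AT10. Lymphocyte markers were at or near 0 (at most 0.19 FPKM in sum, with 3 of 9 at 0 in all 6 libraries), and 8 of 11 macrophage markers and 8 of 9 endothelial markers stayed under 1 FPKM in all 6. Macrophage markers summed to 9.41 to 24.58 FPKM in FCA and 20.33 to 23.44 FPKM in AT10, and the defining marker Cd68 was at 1.7 to 2.79 and 1.77 to 2.91 FPKM. The sums were 19.41 to 22.34 and 17.16 to 22.17 FPKM for endothelium, 127.6 to 139.7 and 114.6 to 127.9 FPKM for adipocytes, 8.69 to 10.6 and 5.24 to 8.85 FPKM for chondrocytes, and 300.9 to 403.1 and 157.6 to 305.4 FPKM for pericytes and smooth muscle. Acta2, which myofibroblasts also express, makes up most of that last sum. In cultures of mixed cells, fewer cells of a type and less RNA per cell cannot be told apart.

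At 10 µM, few single genes passed the test, while in several families most members had fold changes of the same sign. Log2 fold changes, given as AT10 minus FCA on log2(FPKM + 1), were small: over the 11089 records their median was -0.01, their median size 0.128, and 93.7% were under 0.5 in size. With limma and Benjamini-Hochberg adjustment over the 11611 records, 4 records were higher and 16 lower in AT10 at an adjusted p under 0.05, which is 0.0345% and 0.138% of the records tested. Of these 20 calls, 8 were records that switched between 2 levels within a group, which leaves 4 higher (0.0361% of 11089) and 8 lower (0.0721%). With the rule the study used for its gene lists (a log2 fold change past 1 at an unadjusted p under 0.05), 38 records were higher (0.327%) and 44 lower (0.379%), and 15 and 19 of them switched. Since so few records were called, gene families are described by how many members had an unadjusted p under 0.05 in limma and by their median fold change. Over all records tested, 875 were higher (7.54%) and 504 lower (4.34%) at that p, 1241 (10.7%) and 1066 (9.18%) had groups that did not overlap, and 51.7% had a fold change below 0. The backgrounds among the 11089 records, used from here on, are 859 higher (7.75%) and 477 lower (4.3%) at that p, 1218 higher (11%) and 1037 lower (9.35%) with no overlap between the groups, and 48.4% with a fold change above 0. For 3 libraries against 3, an exact permutation test of a single record cannot give a p under 0.1. Just inside the filter on low values lay the unnamed record MSTRG.7852 with a mean of 1.0008 FPKM, and just outside lay Smox with 0.99917 FPKM.

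**Figure D1:**
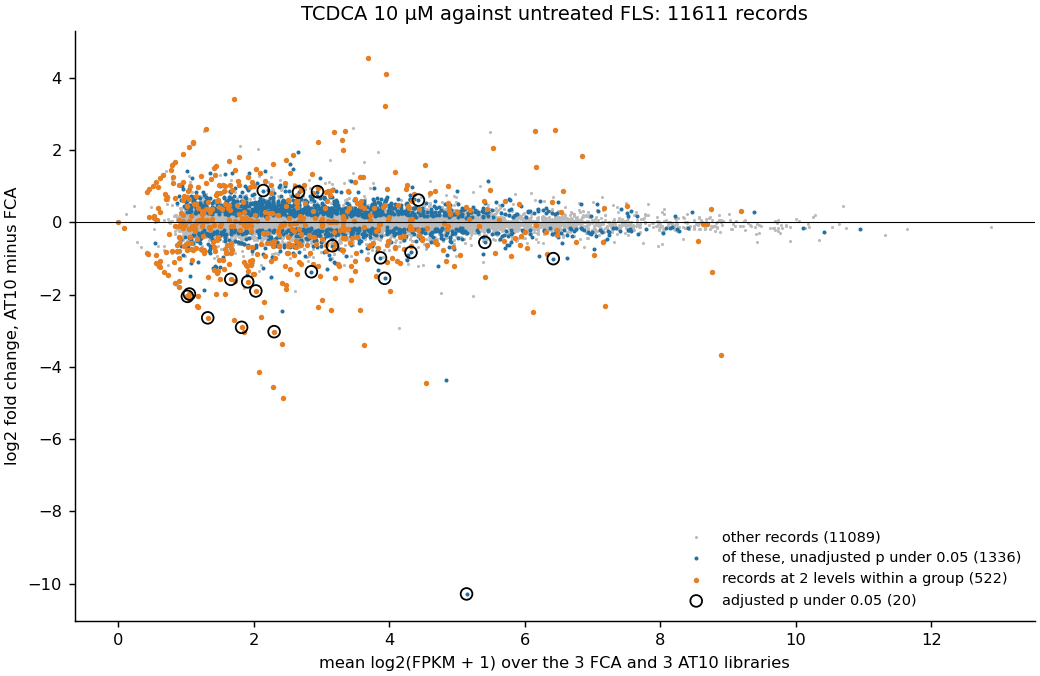
Each point is a record, with its mean log2(FPKM + 1) over the 6 libraries on the x axis and the log2 fold change of AT10 minus FCA on the y axis; orange marks the 522 records that switch between levels within a group, blue an unadjusted p under 0.05 among the others, and circles the 20 records with an adjusted p under 0.05. Most points lie within 0.5 of 0, and 8 of the 20 circles surround orange points.

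Records at 2 levels were set aside where the levels parted libraries of 1 group, even if FCA and AT10 lay wholly apart. A record at 2 levels has, among its 12 sorted log2 values, a widest gap of 1 or more that exceeds the spread inside each level. No fewer than 2 libraries lie above and below the gap. In 522 of the 525 such records the gap lay inside at least 1 of the 4 groups. Spry4, a feedback inhibitor of growth factor signalling, shows the pattern. It was at 8.74, 8.8 and 8.51 FPKM in FCA and at 0.4, 0.26 and 0.23 FPKM in AT10, but also at 0.31 in 1 AT1 library and at 0.34 in 1 AT01 library, with the other 4 between 7.98 and 8.7. The remaining switching records with an adjusted p under 0.05 were Cycs, Morn4, AABR07069282.1, Taf7, Fam83d, Mmp24 and Pdp1, all lower in AT10. Among the family members discussed below, Has2, the main hyaluronan synthase of fibroblasts, switched as well, with 25.83, 23.12 and 27.05 FPKM in FCA against 5.2, 32.24 and 7.75 FPKM in AT10. Ctgf, a matricellular growth factor, stood at 703.83, 755.68 and 623.55 FPKM in FCA and at 190.01, 716.87 and 141.59 FPKM in AT10. For such genes the means of the groups depend on how many libraries sat at each level.

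The 12 remaining calls were 8 records that fell and 4 that rose. Gnpda1, which turns glucosamine-6-phosphate back into fructose-6-phosphate, fell most among those with a fold. It stood at 26.33, 24.16 and 24.87 FPKM in FCA against 6.98, 7.97 and 9 FPKM with 10 µM TCDCA (log2 fold change -1.55, SE 0.099, adjusted p = 0.0112 in limma). All AT10 libraries were below all FCA libraries, and the AT1 and AT01 libraries, at 7.3 to 9.75 FPKM, lay at the level of AT10. LOC108351137, a copy of the glycolytic enzyme glyceraldehyde-3-phosphate dehydrogenase, was at 1221.52, 1284.88 and 1228.59 FPKM in FCA and listed at 0 in every AT10 and every AT01 library, yet at 1155.12 to 1257.69 FPKM in AT1. Gapdh itself was at 374.51 to 435.32 FPKM in FCA and 401.91 to 418.76 FPKM in AT10. Reads of near-identical copies can be assigned to either, which was not tested for this record. No fold is given for it.

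Rab8b, a GTPase of vesicle transport to the cell surface, fell from 10.64, 9.52 and 11.69 FPKM to 3.52, 2.86 and 4.22 FPKM (log2 fold change -1.36, SE 0.137, adjusted p = 0.0469 in limma). LOC100363502, annotated as a cytochrome c, fell from 112.19 to 132.05 FPKM in FCA to 57.86 to 62.18 FPKM in AT10 (adjusted p = 0.0232 in limma). It too has a near-identical partner, since cytochrome c reads can be shared with Cycs. Rnf115, a ubiquitin ligase, had a log2 fold change of -0.98, Nip7, a factor of ribosome assembly, one of -0.83, the record Mir7578 one of -0.65 and Ahcy, which clears S-adenosylhomocysteine after methylation reactions, one of -0.55. The record Mir7578 comes from poly(A) RNA and so measures the host locus, not the mature miRNA.

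The 4 records that rose were LOC103689964, annotated as a vacuolar ATPase assembly protein, Orc2, a subunit of the origin recognition complex that marks where DNA replication starts, Ift74, a subunit of the intraflagellar transport complex, and Cacybp, an adaptor of ubiquitin ligation. Orc2 stood at 4.55, 4.4 and 5.25 FPKM in FCA and at 9.56, 9.11 and 9.38 FPKM in AT10 (log2 fold change 0.86, SE 0.080, adjusted p = 0.0428 in limma). Cacybp rose from 15.82, 16.91 and 16.63 FPKM to 26.63, 25.07 and 25.75 FPKM (log2 fold change 0.62, SE 0.059, adjusted p = 0.0428 in limma). Ift74 rose by 0.84 and LOC103689964 by 0.88 on the log2 scale. At the lower doses the libraries of a group were spread more widely. Cacybp was at 9.49, 5.66 and 11.58 FPKM in AT1 and at 12.65, 17.24 and 29.18 FPKM in AT01, and Orc2 at 3.26 to 8.62 FPKM in AT1. These calls come from the fit that kept the records at 2 levels. When those records were left out before the fit, limma gave 0 higher and 0 lower at an adjusted p under 0.05, with 888 and 498 at an unadjusted p under 0.05, and with the replicate number as a block it gave 0 higher and 1 lower. Of the 20 calls, 10 were not at 2 levels, and 6 of these (Rnf115, LOC100363502, Mir7578, Nip7, Ahcy and Rab8b) still formed 2 levels at least 0.3 apart over the 12 libraries, with AT1 and AT01 libraries on both sides. Ift74, LOC103689964, Orc2 and Cacybp did not.

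**Figure D2:**
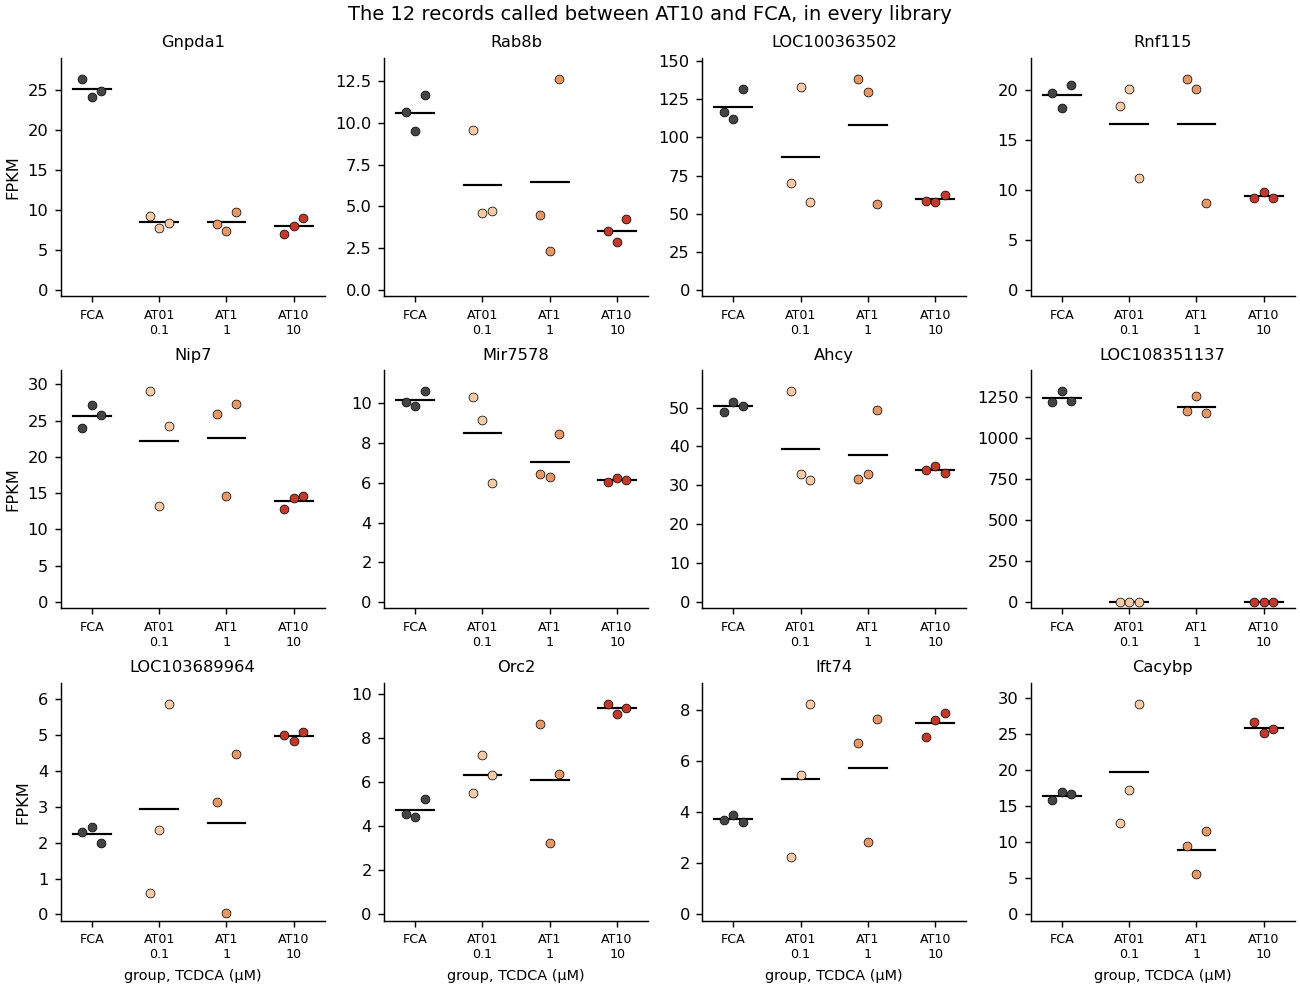
FPKM of the 12 records with an adjusted p under 0.05 that did not switch within a group, with 1 point per library and a bar at the mean of each group (FCA, then TCDCA at 0.1, 1 and 10 µM). FCA and AT10 do not overlap in any panel, while for Rab8b, LOC100363502, Rnf115, Nip7 and Ahcy the AT01 and AT1 libraries lie at both levels.

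Among the records of largest fold change without a call by adjusted p, Tor4a, of the torsin family of ATPases, came nearest, at 11.89, 13.05 and 9.66 FPKM in FCA and 0.66, 1.23 and 2.15 FPKM in AT10 (log2 fold change -2.46, adjusted p = 0.0507 in limma). Its AT1 and AT01 libraries, at 0.86 to 3.6 FPKM, were near those of AT10. Kdelc2, an endoplasmic reticulum protein, stood at 19.46 to 22.59 FPKM in FCA and 6.84 to 10.18 FPKM in AT10 (adjusted p = 0.0664 in limma). The zinc finger protein Zfp652 was at 2.58 to 3.4 FPKM in FCA and 0.46 to 1.06 FPKM in AT10, and Socs6, of the cytokine signalling suppressor family, at 2 to 3.83 and 0.36 to 1.03 FPKM. On the higher side, Sema3d, a secreted guidance factor, was at 1.67, 3.86 and 1.82 FPKM in FCA and 7.66, 9.98 and 10.22 FPKM in AT10 (log2 fold change 1.62, adjusted p = 0.127 in limma). The adenosine receptor Adora2b was at 1.53 to 3.08 FPKM in FCA and 27.84, 5.24 and 9.34 FPKM in AT10, but its AT1 and AT01 libraries ranged from 0.51 to 35.97 FPKM. Fbxl17, a substrate receptor of ubiquitin ligases, had 1.59 to 4.49 FPKM in FCA and 8.99 to 9.09 FPKM in AT10, and Rnf103 had 1.14 to 1.75 and 2.46 to 7.88 FPKM. Phlda3, a p53 target, had 124.02, 132.03 and 127.64 FPKM in FCA and 0.68, 0.31 and 113.16 FPKM in AT10, so that 1 AT10 library was near FCA. Tmem132b and RGD1566189 are listed at 0 in all FCA libraries and at 0.5 to 3.63 and 1.04 to 3.76 FPKM in AT10.

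The collagen chains gave the clearest family shift. Of 43 genes with a collagen chain name in the table, 21 were tested and none switched. A chain recorded under another name was not counted. All 21 had a lower mean log2 level in AT10, against 51.5% of all records. The median log2 fold change was -0.29, against -0.01 over all records. At an unadjusted p under 0.05, 8 of the 21 (38.1%, background 4.3%) were lower and 0 were higher, and in 11 all AT10 libraries lay below all FCA libraries (52.4%, background 9.35%). No chain had an adjusted p under 0.05 in limma. The 8 were Col4a1 and Col4a2, the chains of the basement membrane network, Col5a2 and Col5a3 of fibril-nucleating type V, Col6a1 and Col6a3 of the beaded filaments around cells, and Col16a1 and Col18a1.

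Col6a1 stood at 57.29, 57.47 and 58.17 FPKM in FCA and at 50.82, 45.71 and 38.46 FPKM in AT10 (log2 fold change -0.36, SE 0.107, adjusted p = 0.303 in limma). Col5a3 had 8.89, 8.78 and 8.16 FPKM in FCA and 7.02, 6.95 and 5.53 FPKM in AT10, and Col18a1 24.05, 25.24 and 24.12 against 21.51, 20.56 and 17.75 FPKM. In all 3 genes AT10 replicate 3 was the lowest library. The fibrillar chains of highest level had wider spread: Col1a1 was at 963 ± 94.7 FPKM (SD, 3 libraries) in FCA and 801.7 ± 209 FPKM in AT10, and Col3a1 at 918.1 ± 69 and 785 ± 104 FPKM. Both groups overlapped for Col1a1 and Col3a1.

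AT10 replicate 3 stood apart among the collagens. The median of the 21 chains relative to the FCA mean was -0.18 and -0.17 in AT10 replicates 1 and 2 and -0.50 in replicate 3, and -0.06, 0.03 and 0.04 in the FCA libraries. Without AT10 replicate 3, 19 of the 21 chains had a lower mean, and 7 were lower at an unadjusted p under 0.05 (background 3.65%). The median fold change was then -0.19. Over all the settings tried it lay between -0.35 and -0.19. The medians against the same FCA libraries were -0.09 in AT1 and -0.20 in AT01.

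**Figure D3:**
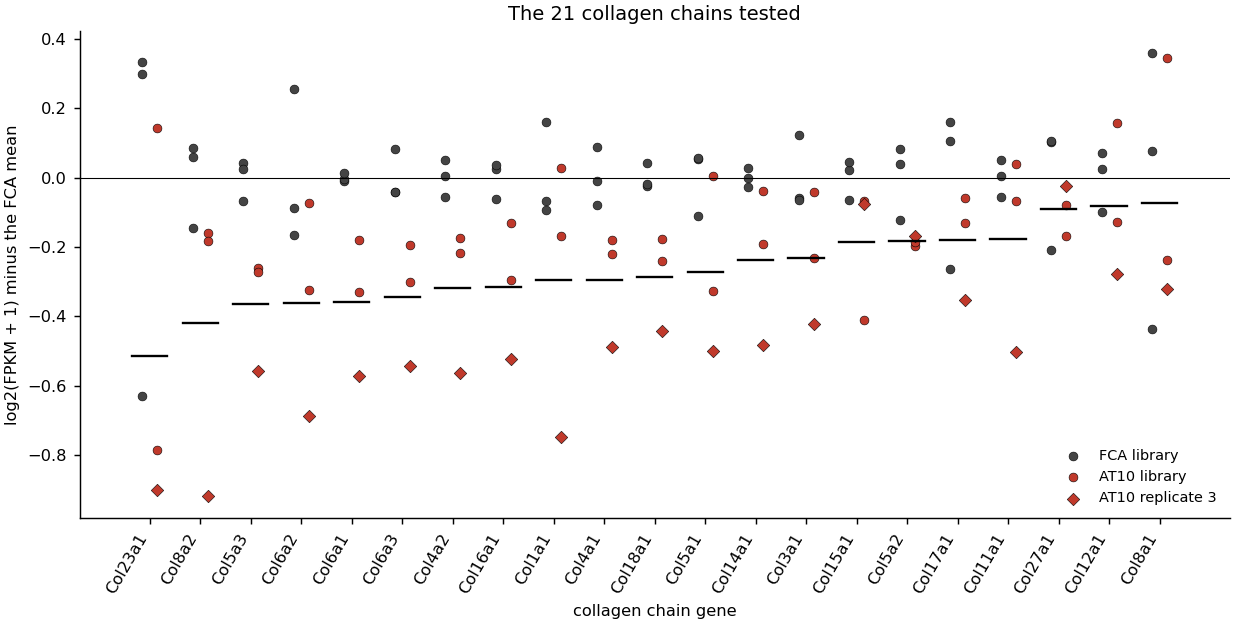
Log2(FPKM + 1) of each of the 21 collagen chains relative to its FCA mean, with FCA libraries in grey, AT10 libraries in red, AT10 replicate 3 as a diamond and a bar at the fold change. All 21 bars lie below 0, and the diamond is the lowest AT10 point in 18 of them.

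Col4a1 and Col4a2 lie head to head, and their promoter windows are shown because both chains had an unadjusted p under 0.05 in the same direction. Col4a1 had 274.94, 288.55 and 308.47 FPKM in FCA and 256.42, 249.03 and 206.7 FPKM in AT10, and Col4a2 had 217.66, 226.66 and 234.43 against 200.24, 194.54 and 152.76 FPKM. The groups did not overlap for either gene. In RefSeq on GRCr8, the window of Col4a1 (250 bases before to 50 after its start) is chr16:84885347-84885646 on the plus strand, and that of Col4a2 is chr16:84885471-84885770 on the minus strand. The windows share 176 bases. Capitals mark CCAAT and GGGCGG on either strand, the words of the CCAAT box and the GC box (ATTGG and CCGCCC on the other strand):
Col4a1: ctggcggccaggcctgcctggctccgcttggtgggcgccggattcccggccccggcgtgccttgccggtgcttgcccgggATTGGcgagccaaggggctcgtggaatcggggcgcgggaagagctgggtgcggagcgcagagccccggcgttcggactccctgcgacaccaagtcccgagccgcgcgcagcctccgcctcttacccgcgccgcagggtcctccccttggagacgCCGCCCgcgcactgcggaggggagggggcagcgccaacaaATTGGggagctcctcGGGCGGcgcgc
Col4a2: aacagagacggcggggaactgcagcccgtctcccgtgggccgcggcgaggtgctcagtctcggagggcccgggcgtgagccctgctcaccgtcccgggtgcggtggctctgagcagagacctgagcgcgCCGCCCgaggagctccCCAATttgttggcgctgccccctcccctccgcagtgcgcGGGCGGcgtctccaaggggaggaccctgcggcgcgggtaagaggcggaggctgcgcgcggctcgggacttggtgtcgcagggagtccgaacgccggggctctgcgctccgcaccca
Over the 16 collagen chains with a window in the table, 11 held GGGCGG (68.8%) and 5 held CCAAT (31.2%), against 34.9% and 37.7% of 27457 rat promoters of the same length. GGGCGG was as common in the other lists searched, in 16 of 20 contractile, 32 of 46 replication and 28 of 39 mitosis genes. A match is only a description of these letters.

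Enzymes that mature collagen also had lower means. All 17 described members of the list had a lower mean in AT10, with a median of -0.14, and 1 of 17 (P3h1) had an unadjusted p under 0.05 (5.88%, background 4.3%). P3h1, which hydroxylates a proline of fibrillar collagens, was at 62.52, 69.24 and 66.69 FPKM in FCA and 43.87, 41.26 and 51.21 FPKM in AT10 (log2 fold change -0.54, adjusted p = 0.146 in limma). Without AT10 replicate 3 the list median was -0.09. Of 26 small leucine-rich proteoglycans and matricellular proteins, 4 were lower and 1 was higher at that p (15.4%, background 4.3%, and 3.85%, background 7.75%), with a median of -0.08. Fn1, the fibronectin of the pericellular matrix, was at 1462.21, 1508.33 and 1532.43 FPKM in FCA and 1255.17, 1329.28 and 1154.05 FPKM in AT10, and Fbln2 at 127.82 to 151.12 and 102.37 to 122.53 FPKM. Lum, lumican, which binds collagen fibrils, went against its list with 594.72, 603.35 and 625.06 FPKM in FCA and 699.71, 783.7 and 737.3 FPKM in AT10 (log2 fold change 0.28, adjusted p = 0.191 in limma). The list median was -0.02 without AT10 replicate 3, with 1 of the 26 lower at that p.

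Genes of the contractile apparatus, which marks myofibroblasts, had lower means for 22 of 24 members and a median of -0.18, although 2 of 24 had an unadjusted p under 0.05 (8.33%, background 4.3%). Myl9, the regulatory light chain of smooth muscle myosin, stood at 60.73, 61.65 and 59.37 FPKM in FCA and 48.8, 47 and 43.2 FPKM in AT10 (log2 fold change -0.38, SE 0.064, adjusted p = 0.133 in limma). The groups were well apart, and the AT1 and AT01 means were 51.05 and 55.21 FPKM. Acta2, smooth muscle actin, was at 370.12, 317.43 and 263.19 FPKM in FCA and 255.5, 247.28 and 125.35 FPKM in AT10, where replicate 3 was the lowest of the 6. The list median in AT10 replicate 3 was -0.33, against -0.08 in each of the other 2, and without that library it was -0.09. Without it 17 of the 24 members had a lower mean, with 1 lower and 1 higher at an unadjusted p under 0.05.

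The TGF-beta, activin and BMP list had a median of -0.07 over 42 members, with 5 lower (11.9%, background 4.3%) and 2 higher (4.76%) at an unadjusted p under 0.05. Smad1, the transducer of BMP signals, stood at 16.97, 17.52 and 18.33 FPKM in FCA and 8.65, 10.13 and 10.48 FPKM in AT10 (log2 fold change -0.79, SE 0.087, adjusted p = 0.0607 in limma). Its AT1 libraries were at 16.16 to 18.35 FPKM and its AT01 libraries at 17.84, 17.38 and 10.12 FPKM, so it too took 2 levels at the lowest dose. Tgfb2, a ligand, was at 3.56 to 4.21 and 2.55 to 2.9 FPKM, and Smad3, the transducer of TGF-beta, at 6.89, 16.39 and 17.08 FPKM in FCA and 6.21, 4.12 and 5.46 FPKM in AT10. Skil, an inhibitor of SMADs, had 10.29 to 12.66 FPKM in FCA and 13.49 to 17.69 FPKM in AT10. Without AT10 replicate 3, 2 members were lower and 2 higher at that p, and the median was -0.05. In the YAP and TAZ list, Wwtr1, the coactivator TAZ, was at 8.26, 8.62 and 8.82 FPKM in FCA and 5.86, 5.2 and 5.65 FPKM in AT10 (adjusted p = 0.0892 in limma), while the list of 20 had 2 lower and 2 higher members (2 and 0 without AT10 replicate 3).

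Chemokine and prostaglandin genes had fold changes mostly above 0. Of 9 chemokines described, 2 were higher and 0 lower at an unadjusted p under 0.05 (22.2%, background 7.75%), with a median of 0.33, and 3 further chemokines switched between levels. Cxcl2, which attracts neutrophils, stood at 1.12, 1.25 and 2.57 FPKM in FCA and 3.36, 3.6 and 5.91 FPKM in AT10 (log2 fold change 1.01, SE 0.274, adjusted p = 0.272 in limma). All AT10 libraries were above all FCA libraries, while AT1 was at 1.46 to 1.65 FPKM and AT01 at 1.64 to 7.31 FPKM. Cxcl13, which attracts B cells, was at 160.37, 188.33 and 155.24 FPKM in FCA and 198.26, 235.36 and 198.48 FPKM in AT10. The abundant Ccl2, which attracts monocytes, was at 1439 ± 277 FPKM in FCA and 2005 ± 638 FPKM in AT10, and its groups overlapped. Cxcl1, at 441.22, 996.45 and 645.51 FPKM in FCA and 384.43, 479.05 and 978.47 FPKM in AT10, overlapped as well. The chemokine median was 0.04, 0.14 and 0.67 in the 3 AT10 libraries and 0.04 without replicate 3.

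Prostaglandin genes had 3 of 13 members higher and 0 lower at an unadjusted p under 0.05 (23.1%, background 7.75%). Ptgs2, the inducible cyclooxygenase COX-2, was at 40.76, 16.63 and 32.9 FPKM in FCA and 40.49, 66.17 and 97.96 FPKM in AT10 (log2 fold change 1.16, SE 0.440, adjusted p = 0.403 in limma). The groups met at about 40 FPKM, and AT1 and AT01 were at 20.3 to 35.1 FPKM. Ptges3, a prostaglandin E synthase that is also the HSP90 cochaperone p23, was at 69.36, 85.56 and 65.91 FPKM in FCA and 104.79, 109.75 and 111.12 FPKM in AT10. The list median of the fold changes was 0.19, and 0.10 without AT10 replicate 3. Relative to the FCA mean, the library medians were lower, at 0.09, 0.08 and 0.02 in AT10. They were -0.01, 0.03 and -0.01 in FCA, so AT10 replicate 3 lay within the FCA range. Ptgs1, the constitutive cyclooxygenase, had means of 203.1 and 194.3 FPKM.

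Il6, a main cytokine of arthritic FLS, was at 81.56, 107.81 and 128.11 FPKM in FCA and 126.07, 146.93 and 204.56 FPKM in AT10 (log2 fold change 0.58, SE 0.237, adjusted p = 0.426 in limma), and the AT1 and AT01 means were 159 and 150.4 FPKM. No member of the IL-6 family list (17 described) had an unadjusted p under 0.05. Il1b was low, at 1.15 to 2.18 FPKM in FCA and 0.72 to 2.3 FPKM in AT10, and Tnf was at or near 0 in all libraries. In the IL-1, TNF and NF-kB list of 28, the receptor antagonist Il1rn was at 7.27 to 7.81 FPKM in FCA and 4.8 to 6.53 FPKM in AT10, the kinase Ikbkb at 10.05 to 10.97 and 7.46 to 8.91 FPKM, and the kinase Chuk at 4.39 to 5.32 and 5.39 to 7.56 FPKM. Both kinases phosphorylate the inhibitor of NF-kB. The list held 1 member higher and 2 lower at that p. The adhesion receptor Vcam1 was at 2.55 to 3.64 FPKM in FCA and 4.01 to 4.87 FPKM in AT10, and Thy1, a surface marker of sublining fibroblasts, at 151.7 to 157.89 and 114.36 to 141.67 FPKM.

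Complement had 4 of 12 members lower at an unadjusted p under 0.05 (33.3%, background 4.3%), which were Cfd, Masp1, Clu and C1r, and 1 higher. The higher one was Cd55, which removes complement convertases from the cell surface and stood at 106.23, 104.48 and 124.54 FPKM in FCA and 153.71, 179.43 and 149.75 FPKM in AT10 (log2 fold change 0.52, SE 0.105, adjusted p = 0.177 in limma). Cfd, the protease that starts the alternative pathway and is also an adipocyte marker, was at 23.74 to 27.29 and 19.28 to 21.96 FPKM. The adipocyte marker list had a median of -0.23 (-0.28 without AT10 replicate 3), with 6 of 8 members below 0 and 2 of them at that p, and its part in the complement counts was not tested. Without AT10 replicate 3, 2 members were lower and 1 was higher at that p. Of 12 metalloproteinases and TIMPs, 1 (Mmp16, at 1.77 to 3.35 and 1.38 to 1.59 FPKM) was lower at that p. For the abundant members the groups overlapped: Mmp3, stromelysin, was at 412.32 to 548.2 FPKM in FCA and 485.88 to 708.82 FPKM in AT10, Mmp13 at 66.47 to 87.7 and 74.09 to 92.23 FPKM, and Timp1 at 932.43 to 977.06 and 816.03 to 984.2 FPKM.

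**Figure D4:**
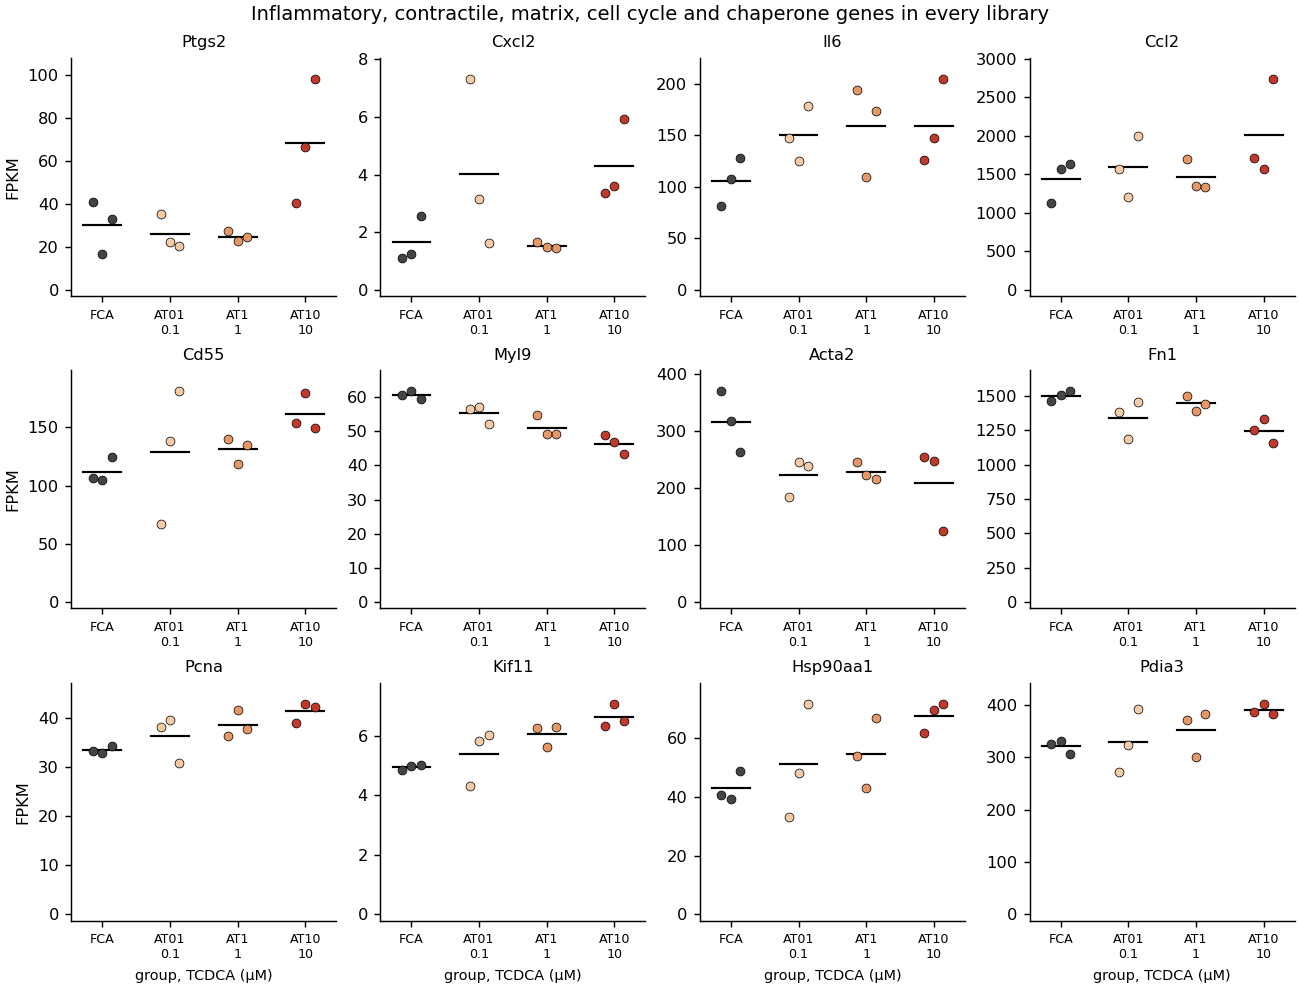
FPKM of 12 inflammatory, contractile, matrix, cell cycle and chaperone genes, with 1 point per library and a bar at the mean of each group (FCA, then TCDCA at 0.1, 1 and 10 µM). AT10 lies apart from FCA for Cxcl2, Cd55, Myl9, Acta2, Fn1, Pcna, Kif11, Hsp90aa1 and Pdia3, while Il6, Ccl2 and Ptgs2 overlap.

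No receptor of bile acids or glucocorticoids passed the test. Gpbar1 was at most 0.06 FPKM in any library of FCA or AT10 and was not tested. Of 8 described members of the bile acid list, 0 had an unadjusted p under 0.05. S1pr2 was at 11.94 to 13.05 FPKM in FCA and 12.43 to 19.69 FPKM in AT10, and the vitamin D receptor Vdr, which also binds lithocholic acid, at 3.51 to 4.47 and 2.18 to 3.7 FPKM. The record of Nr3c1, the glucocorticoid receptor, with the highest mean among those of its name that do not switch was at 7.15, 5.39 and 7.74 FPKM in FCA and 6.53, 7.9 and 9.54 FPKM in AT10 (log2 fold change 0.21, SE 0.173, adjusted p = 0.639 in limma). When the records named Nr3c1 were summed, a switching record entered and the log2 fold change was -0.22. Its 21 described targets and partners included 1 that was lower at that p, Glul, glutamine synthetase, and the target Fkbp5 had 10.08 to 10.79 FPKM in FCA and 10.05 to 10.54 FPKM in AT10. In the cAMP list of 42, 2 were higher and 1 lower: Adcy6, an adenylate cyclase, was at 14.12 to 20.88 and 11.07 to 12.46 FPKM, and Pde7b, which breaks down cAMP, at 1.52 to 1.89 and 2.43 to 3.31 FPKM. Immediate early genes had other values at the lower doses than at 10 µM. Their median fold change was 0.00 in AT10, with 0 of 24 at that p, and -0.29 in AT1 and -0.27 in AT01. Egr1, for example, was at 40.1 to 43.2 FPKM in FCA, 41.54 to 46.98 in AT10, 22.42 to 25.49 in AT1 and 22.32 to 28.21 in AT01.

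Most genes of DNA replication and of mitosis had higher means at 10 µM. Of 59 members of the replication and G1/S list, 44 were higher, with a median of 0.08. At an unadjusted p under 0.05, 9 were higher (15.3%, background 7.75%) and 0 lower. They were Pcna, Cdk6, Tyms, Tk1, Orc1, Rbl1, Ccne2, Rrm1 and Rfc4. Pcna, the sliding clamp of the replication fork, stood at 33.42, 33 and 34.28 FPKM in FCA and 39.03, 42.95 and 42.34 FPKM in AT10 (log2 fold change 0.29, SE 0.061, adjusted p = 0.178 in limma). Tyms, which makes dTMP, was at 8.54, 7.96 and 8.2 FPKM in FCA and 9.17, 9.82 and 10.47 FPKM in AT10. The median was between 0.05 and 0.09 in each AT10 library and between -0.01 and 0.00 in each FCA library, and it kept its sign in every setting tried (0.06 to 0.11), but it was -0.01 in AT1 and 0.02 in AT01. Without AT10 replicate 3, 5 members were higher and 2 lower at that p (backgrounds 5.6% and 3.65%).

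Of 46 mitosis and G2/M genes, 27 had a higher mean (58.7%, background 48.4%). At an unadjusted p under 0.05, 11 were higher (23.9%, background 7.75%) and 1 was lower. Kif11, the kinesin that pushes spindle poles apart, was at 4.84, 4.98 and 5.03 FPKM in FCA and 6.31, 7.07 and 6.49 FPKM in AT10 (log2 fold change 0.36, SE 0.069, adjusted p = 0.166 in limma). Cenpf, of the kinetochore, was at 1.11 to 1.84 and 2.86 to 3.44 FPKM, and Mki67, the proliferation antigen Ki-67, at 6.74, 5.84 and 8.11 FPKM in FCA and 8.81, 10.5 and 9.94 FPKM in AT10. The others were Hmmr, Ect2, Ttk, Bub1, Ccna2, Ndc80, Cenpe and Top2a. The lower one was Spc24, at 37.07 to 42.42 FPKM in FCA and 18.76 to 32.77 FPKM in AT10. The mRNAs of Cdk1, Cdc20 and Foxm1 had means of 54.25, 39.35 and 1.92 FPKM in FCA and 58.76, 33.52 and 1.63 FPKM in AT10. The list medians in AT1 and AT01 were 0.11 and 0.09, above the 0.06 in AT10.

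Promoter windows of 1 gene of each list are shown because the lists differ in the words they hold. Tyms lies at chr9:120776034-120776333 on the minus strand and Kif11 at chr1:244536617-244536916 on the plus strand of GRCr8 (RefSeq). Capitals mark an E2F word in Tyms, where E2F words are TTTCGCGC, TTTGGCGC, TTTCCCGC and TTTGGCGG on either strand, and CCAAT on either strand in Kif11:
Tyms: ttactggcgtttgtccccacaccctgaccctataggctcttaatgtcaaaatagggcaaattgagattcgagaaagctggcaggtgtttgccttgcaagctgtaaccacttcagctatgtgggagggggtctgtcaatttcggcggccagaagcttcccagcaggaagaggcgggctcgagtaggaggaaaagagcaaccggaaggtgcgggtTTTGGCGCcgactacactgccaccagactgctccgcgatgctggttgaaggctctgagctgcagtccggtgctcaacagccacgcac
Kif11: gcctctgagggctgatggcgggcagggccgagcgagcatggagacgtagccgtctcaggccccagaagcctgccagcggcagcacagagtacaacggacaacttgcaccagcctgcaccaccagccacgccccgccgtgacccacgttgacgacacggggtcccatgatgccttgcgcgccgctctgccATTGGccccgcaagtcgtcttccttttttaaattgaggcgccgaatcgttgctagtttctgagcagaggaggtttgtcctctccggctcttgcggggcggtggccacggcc
An E2F word was found in 24 of 46 replication genes with a window (52.2%) and in 1 of 39 mitosis genes (2.56%), against 2.31% of all promoters. CCAAT was found in 27 of the 46 (58.7%) and in 31 of the 39 (79.5%), against 37.7%. These shares describe the lists and were not tied to the fold changes.

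The lists of ubiquitin enzymes, splicing factors, chaperones and translation factors held more members above 0 than below. Of 118 ubiquitin-conjugating enzymes, cullins, F-box proteins and deubiquitinases, 17 were higher (14.4%, background 7.75%) and 0 lower at an unadjusted p under 0.05, although the median was only 0.04. Usp14, a deubiquitinase of the proteasome, was at 13.93, 16.12 and 14.34 FPKM in FCA and 22.41, 24.49 and 23.71 FPKM in AT10 (log2 fold change 0.64, SE 0.078, adjusted p = 0.0785 in limma). Cul3, a ligase scaffold, was at 10.12 to 12.6 and 16.69 to 19.62 FPKM, and Ube2d2, a conjugating enzyme, at 11.48 to 14.59 and 22.41 to 30.84 FPKM. For all 3 genes the groups were apart. Of 91 splicing factors, 12 were higher (13.2%) and 2 lower, with a median of 0.04. Prpf39 was at 2.61 to 3.03 and 4.29 to 6.04 FPKM and Rbm39 at 6.11 to 6.95 and 8.5 to 9.29 FPKM.

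Of 70 heat shock proteins, co-chaperones and chaperonins, 6 were higher and 1 lower (8.57% and 1.43%), a share near the background. The stress-inducible Hsp90aa1 was at 40.62, 39.38 and 48.77 FPKM in FCA and 61.76, 69.38 and 71.51 FPKM in AT10 (log2 fold change 0.65, SE 0.106, adjusted p = 0.129 in limma). Of 32 genes of the unfolded protein response, 3 were higher and 0 lower (9.38%). Pdia3, a disulfide isomerase, was at 306.45 to 331.4 and 381.28 to 401.72 FPKM, Trib3, a stress-induced pseudokinase, at 1.19 to 1.58 and 3.03 to 4.48 FPKM, and Dnajb9 at 1.21 to 1.57 and 2.03 to 2.52 FPKM. In ribosome biogenesis, 6 of 35 were higher and 2 lower (17.1% and 5.71%), and without AT10 replicate 3 it was 2 and 2. Npm1, the nucleolar chaperone nucleophosmin, was at 90.89, 91.99 and 100.06 FPKM in FCA and 129.14, 131.14 and 146.03 FPKM in AT10 (adjusted p = 0.0962 in limma), whereas Nip7 of the same list was among the calls that fell. Of 90 translation factors and tRNA synthetases, 9 were higher and 3 lower (10.0% and 3.33%), with Etf1, the release factor, at 16.8 to 23.16 and 28.94 to 33.11 FPKM. The counts were 4 and 1 without AT10 replicate 3 (background 5.6% higher).

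Respiratory and ribosomal proteins had fold changes mostly below 0. Of 82 oxidative phosphorylation subunits, 56 had a lower mean, 9 were lower at an unadjusted p under 0.05 (11%, background 4.3%) and 1 was higher, with a median of -0.07. Leaving out AT10 replicate 3 gave 5 lower and 0 higher (background 3.65% lower). The complex I subunits Ndufb8, Ndufs8 and Ndufs5 were at 117.56 to 121.45, 53.34 to 59.92 and 100.88 to 102.18 FPKM in FCA and at 105.15 to 108.18, 46.49 to 49.72 and 83.6 to 91.95 FPKM in AT10. The groups did not overlap for these 3, and the folds were between -0.22 and -0.16. Over 74 cytosolic ribosomal proteins the median was -0.08, with 2 lower and 2 higher at that p (2.7% each) and 13 without overlap on the lower side (17.6%, background 9.35%). Rpl36 was at 132 to 145.5 and 103.28 to 118.54 FPKM and Rpl14 at 350.28 to 362.4 and 310.53 to 331.79 FPKM. AT10 replicate 3 stood with FCA for these genes, with a median of 0.02 against -0.10 and -0.12 in the other 2 libraries, and without it 13 members were lower. Of 67 mitochondrial ribosomal proteins, 4 were lower and 1 higher.

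**Figure D5:**
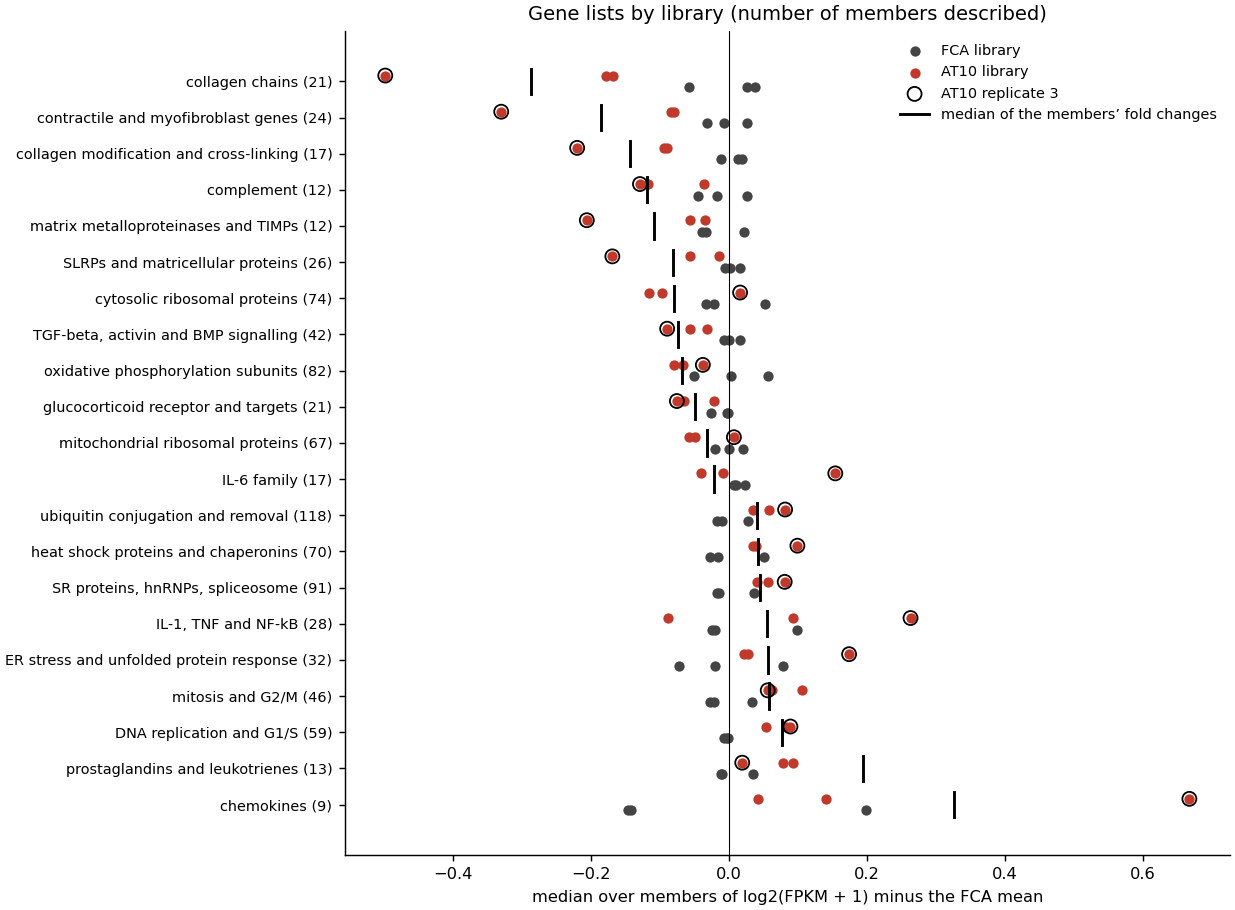
For 21 gene lists, the median over the members of log2(FPKM + 1) relative to the FCA mean in each FCA library (grey) and each AT10 library (red), with AT10 replicate 3 circled and a bar at the median fold change. Collagen chains (-0.29), contractile genes (-0.18) and collagen-maturing enzymes (-0.14) lie lowest and chemokines (0.33) highest, and replicate 3 lies farther out than the other AT10 libraries in each of them.

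Fold changes varied with the length of the gene. For the 9708 described records (87.5%) with a gene span in RefSeq, the median fold change was -0.06, -0.03, 0.01 and 0.04 in 4 bins of 2427 records each, from the shortest spans to the longest. The share with an unadjusted p under 0.05 was 3.5% higher and 6.67% lower in the bin of shortest spans and 10.1% higher and 3.01% lower in the longest. The part of gene length in the list medians was not tested. In the bin of longest spans the groups overlapped. Its median relative to the FCA mean was 0.01, 0.04 and 0.07 in the AT10 libraries and 0.01, -0.04 and 0.05 in the FCA libraries. It was between 0.03 and 0.09 in the AT1 and AT01 libraries. In the bin of shortest spans every AT10 library lay below every FCA library. The medians there were -0.03, -0.07 and -0.06 in AT10 and -0.01, 0.04 and -0.02 in FCA. The AT1 and AT01 libraries ranged from -0.15 to 0.02 in that bin.

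The libraries at the lower doses show how far these records vary without the 10 µM dose. The 859 records that were higher at an unadjusted p under 0.05 were chosen on the FCA and AT10 values, where their medians relative to FCA were 0.31, 0.38 and 0.42. The AT1 and AT01 libraries entered that choice only through the filter on low values and the search for records at 2 levels. Relative to the same FCA mean, the medians were 0.27, 0.06 and 0.33 in the AT1 libraries and -0.11, 0.15 and 0.36 in the AT01 libraries. Thus AT1 replicate 2 and AT01 replicate 1 stood near or below FCA and AT01 replicate 3 near AT10, within groups of 1 dose. In the quality listing of the study, the GC content of the reads ran in much the same order over the libraries. It was lower where these records were higher, and every AT10 library had a lower GC content than every FCA library. Thus GC content and the 10 µM dose cannot be told apart in this comparison. The part of GC content in the counts and list medians was not tested. Usp14 follows this order over the libraries, with 18.76, 13.15 and 23.16 FPKM in AT1 and 9.13, 14.79 and 24.45 FPKM in AT01, as do Npm1 and Hsp90aa1. For the 477 records that were lower the medians were -0.28, -0.31 and -0.34 in AT10, -0.16, -0.12 and -0.19 in AT1, and -0.09, -0.15 and -0.25 in AT01.

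The remaining lists had small medians. The backgrounds for their counts at an unadjusted p under 0.05 are 7.75% higher and 4.3% lower, or 5.6% and 3.65% without AT10 replicate 3. Zinc finger proteins, for example, lay near them at 6.15% higher and 3.91% lower. No member had an unadjusted p under 0.05 in the Wnt list (24 described). Among 17 interferon-stimulated genes 1 was higher, Eif2ak2, at 4.99 to 6.31 and 6.75 to 8.34 FPKM, and among 13 Toll-like receptor genes 1 was higher, Traf6. Of 39 NRF2 targets and antioxidant enzymes 3 were lower, Gstp1, Gstm1 and Sod1, and 0 higher, and of 31 sterol genes 3 were higher and 2 lower. Among the latter Ebp, a sterol isomerase, was at 16.57 to 17.69 and 21.37 to 24.92 FPKM and Idi1, of the mevalonate pathway, at 4.66 to 5.36 and 6.56 to 7.47 FPKM. Of 26 p53 targets 3 were higher and 1 lower, with Pmaip1, the BH3-only protein NOXA, at 10.58 to 12.21 FPKM in FCA and 15.87 to 17.07 FPKM in AT10, and of 28 BCL2 family members and caspases 4 were higher, Pmaip1 included. Autophagy had 4 higher and 1 lower of 32, with Rb1cc1, a subunit of the ULK complex, at 2.64 to 3.32 and 4.31 to 6.38 FPKM. Of 17 hyaluronan genes 2 were higher and 2 lower, and besides Gnpda1 these included Hyal2, at 22.38 to 26.41 and 14.19 to 20.59 FPKM, and Hmmr. Tubulins, kinesins and dyneins had 8 of 48 higher (16.7%) and 1 lower, with Dynlt3 at 10.83 to 11.55 and 14.81 to 15.44 FPKM, and a median of 0.00. Growth factors of the PDGF, FGF, IGF and VEGF families had 1 of 28 higher, Fgf7, at 111.58 to 134.03 and 140.25 to 160.67 FPKM, and 1 lower. Among 45 proteasome genes 2 were higher and 4 lower, among 150 solute carriers 6 and 7, among 179 zinc finger proteins 11 and 7, among 60 ARF, ARL and RAB GTPases 6 and 4, among 76 coat and Golgi traffic genes 5 and 1, and among 38 glycolysis and hypoxia genes 0 and 2. The proteasome had 3 higher and 1 lower without AT10 replicate 3, coat and Golgi traffic 2 and 1, and the RAB list 4 and 3. The other lists had at most 3 members at that p in either direction, and their medians lay between -0.08 and 0.07.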

How the data were processed

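Poly(A) RNA of 12 libraries of rat FLS was sequenced, and 6 of the libraries, FCA and AT10, entered the main fit. The authors used HISAT2 for alignment and StringTie with Ballgown for quantification, and they deposited FPKM per gene record with 1 column per library. FPKM removes gene length and library total but no other bias, read counts are not used here, and the genome build is not given in the sources used here. Library totals of FPKM are given here, and the reads per library listed by the study were not used.

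FPKM was transformed as log2(FPKM + 1). The test was limma 3.58.1 (R 4.3.3, trend of variance over expression) on the 6 libraries, for records whose 12-library mean was no lower than 1 FPKM, with Benjamini-Hochberg adjustment over 11611 records, since the study compared groups with Ballgown, a linear model. A fold change on this scale understates the change of low genes. Counts, medians and figures were made in Python 3.11.15 with pandas 2.3.3, NumPy 2.4.6 and Matplotlib 3.10.9. On simulated data with 200 of 11611 records shifted by 2 on the log2 scale, an adjusted p under 0.05 recovered 86% with 8 wrong calls. The simulated noise was normal and independent between records. That shift is far larger than most folds here, of which 93.7% were under 0.5 in size. The simulation therefore does not show how many folds of the size described would be found.

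The members and the 55 gene lists and 7 marker lists were chosen with earlier results of these data known. Each list holds, for each name, the record of highest mean FPKM, and lists are described by counts and medians beside all records, with no set test. Named genes are those with an adjusted p under 0.05 that did not switch, the 8 largest folds in each direction with an unadjusted p under 0.05 and no overlap, up to 3 members of each list by p, Nr3c1, Gpbar1 and the markers. Other genes named beside them (the rest of a counted set, abundant members and the 2-level examples) were picked after their values were seen. 1 gene that the rule names is not reported here. Columns of comparisons made by the authors were not used. Promoter windows and gene spans came from RefSeq tables on GRCr8, matched by symbol.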

Additional observations from a re-analysis of the deposited data

How the results depend on the processing

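The counts of records with an adjusted p under 0.05 in limma (4 higher and 16 lower) depended on the fit, while 33 list medians did not change sign. They were 0 and 1 with a Ballgown-style F test, 1 and 6 with a mean of at least 10 FPKM, 0 and 2 in one fit over 12 libraries, 2 and 11 without the variance trend, and 0 and 0 without records at 2 levels (888 higher and 498 lower at an unadjusted p under 0.05 there). They were 4 and 8 without records at 2 levels or with 1 library apart, and 0 were lower with records at levels 0.3 apart set aside. The last 2 alternatives were chosen after seeing the data. Leaving out 1 library gave 4 to 11 higher and 14 to 28 lower, where 7 and 28 came without AT10 replicate 3, 11 and 22 without FCA replicate 2, 10 without FCA replicate 3 and 7 without FCA replicate 1. By the study's rule (38 higher and 44 lower), the counts were 17 higher with the F test, 8 and 11 with a mean of at least 10 FPKM, 85 higher with a pseudocount of 0.1, 25 and 23 without records at 2 levels, 18 and 14 without those or with 1 library apart, and 20 and 13 with levels 0.3 apart set aside, and 34 to 48 and 48 to 69 with 1 library left out, 69 of them without FCA replicate 1. The unadjusted counts (875 and 504) were 275 and 234 with a mean of at least 10 FPKM, and 809 were lower with no filter, since fewer or more records were tested. With 1 library left out they were 632 to 978 and 360 to 576.

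With the replicate number as a block, 0 were higher and 1 was lower at an adjusted p under 0.05. The study calls the numbers repeats without saying what they share. They were not taken as pairs, since the correlations of the deviations of same-numbered AT10 and FCA libraries were 0.02, -0.01 and 0.09, and not every library correlated best with its own number. Of 61 list medians, 33 kept their sign in all 17 settings, among them collagen chains, contractile genes, complement, chemokines, replication, mitosis, splicing and oxidative phosphorylation, and 28 changed it in at least 1, among them prostaglandin genes (-0.01 to 0.27) and IL-1, TNF and NF-kB (-0.07 to 0.22). Of 2429 values for 148 named genes, 2307 kept their direction and their side of the threshold, 107 lost and 14 gained a call by it, and 1 reversed. Only the 12 named records called in the main fit could lose a call, so the 107 losses all fell on them. Most of the 2307 values belong to genes without a call that stayed without one, so this number does not measure how stable the calls were. The reversed value was that of Nr3c1, at -0.22 when records were summed by name, where a switching record enters. The number of reads behind each FPKM value is not given.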

Other observations

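Gene Ontology terms deposited with the records gave a view that did not start from written lists. Among 666 terms with 20 to 200 described records, the lowest medians of the AT10 fold changes belonged to collagen trimer (20 records, -0.18) and stress fiber (21, -0.14), and proteinaceous extracellular matrix (78, -0.11) had 60 records with a lower mean, 11 of them lower and 3 higher at an unadjusted p under 0.05. Mitochondrial respiratory chain complex I (30, -0.12) and hydrogen ion transmembrane transport (24, -0.12) were also low, and without AT10 replicate 3 they were -0.08 and -0.17. Without that library collagen trimer was -0.11 and stress fiber -0.06, so that collagen trimer was no longer the lowest. The highest medians were those of regulation of inflammatory response (21 records, 0.14), chromosome segregation (35, 0.10), stem cell population maintenance (24, 0.09) and GDP binding (34, 0.09), of which 7 were higher and 2 lower at that p. Chromatin (66, 0.08), ubiquitin ligase complex (44, 0.09) and translational initiation (45, 0.08) followed. These terms overlap each other and the lists, so they are not independent of them.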
